A study of Mus musculus with 12 samples.

Results

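Notch signalling genes were read in 12 single cultured cardiac progenitor cells (CPCs). The members were fixed by name and cover the receptors Notch1, Notch2, Notch3 and Notch4, the ligands Jag1, Jag2, Dll1 and Dll4, and the target genes Hes1 and Hey1, which are 10 of the 21729 genes in the count table. The CPCs were c-Kit+, lineage-depleted non-myocyte cells from hearts of FVB mice labelled female and 12 weeks old, pooled before plating, grown as an adherent culture on gelatin in a serum medium with leukemia inhibitory factor, basic fibroblast growth factor and epidermal growth factor, and taken at passage 5. All 12 libraries belong to this single cultured group. The labels name no separate culture or animal for a cell, so the group counts as 1 sample, and no test was made between cells.

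Notch receptors are membrane proteins that are activated by ligands on a neighbouring cell. Binding exposes the receptor to cleavage by an ADAM protease and then by the gamma-secretase complex, and the freed intracellular part joins the DNA-binding protein Rbpj in the nucleus to switch on repressors of the Hes and Hey families. In the heart the pathway is known for its part in endothelial and arterial identity, in the vessel wall and in the development of valves and trabeculae.

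Total counts ran from 3453708 to 5690184 per cell, and a count of 0 was read as a level of up to that of 3 counts, 0.527 to 0.869 CPM (a gene's count per 1000000 counts of the cell). The exact Poisson interval of a count of 0 reaches somewhat higher, to 0.648 to 1.07 CPM. Reads were not tagged by molecule, so intervals and limits cover counting error only. CPC10 stood apart from the other cells. Its 10 endothelial markers summed to 9810 CPM, against a range of 0.629 to 58.5 CPM elsewhere, with 8 of the 10 markers at 10 CPM or more in CPC10 and Cldn5 and Vwf at 0 in every cell. Kit, the gene of the sorted receptor, was counted in 1 cell, CPC10, at 3.94 CPM. Counts of 4 Y-linked genes were present in all 12 cells, at sums of 9.76 to 267 CPM, although the labels give the hearts as female.

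Cultured CPCs carried transcripts of a few Notch genes at low levels and of the target Hes1 at a high level. Hes1, Jag1 and Notch2 had counts in all 12 cells, and Dll1 had none in any cell. For comparison, 35.3% of all genes in the table had counts in all 12 cells and 33.4% had none. Counts were present for 67 of the 120 pairs of a member and a cell (55.8%), and 36 pairs (30.0%) were at 10 CPM or higher. Over all genes in the table these shares were 50.5% and 35.9%, so the members as a group were detected about as often as any gene. Receptors had counts in 35 of 48 values (72.9%), ligands in 15 of 48 (31.2%) and targets in 17 of 24 (70.8%).

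**Figure D1:**
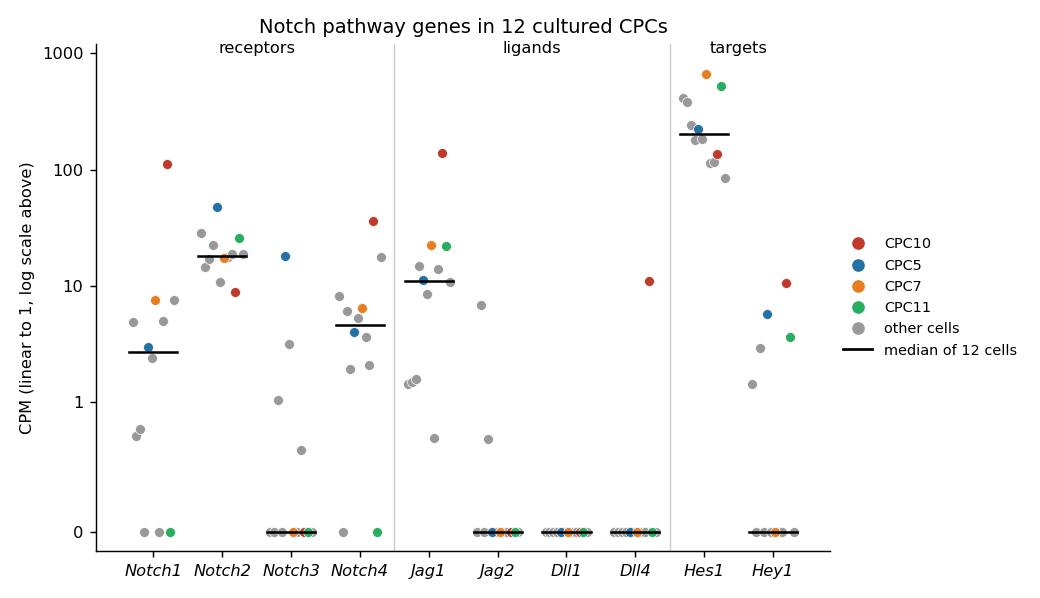
Level of each Notch pathway gene in each of the 12 cells (points, CPM, linear up to 1 and logarithmic above), with the median over cells as a black bar and 4 cells in colour. CPC10 lies above the other cells for Notch1 (112 CPM), Notch4, Jag1 (140 CPM), Dll4 and Hey1, while CPC7 and CPC11 lead for Hes1.

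Levels of different genes were compared per length, as RPKM (CPM per kilobase of annotated exon). By median RPKM the order was Hes1 at 99.4, Jag1 at 1.88, Notch2 at 1.69, Notch4 at 0.576 and Notch1 at 0.189, and the medians of Notch3, Jag2, Dll1, Dll4 and Hey1 were 0. Hes1 was thus far above the rest. Jag1 and Notch2 were close, with Jag1 above Notch2 in RPKM in 7 of 12 cells. Summed by role, the receptors had a median of 2.47 RPKM per cell (range 1.4 to 13.2), the ligands 1.88 (range 0.125 to 26.8) and the targets 100 (range 41.8 to 326).

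Notch2 (chromosome 3, 98013527 to 98150361, mm10, plus strand), a receptor of broad expression, was the most even of the receptors. Its level was lowest in CPC10 at 8.82 CPM, had a median of 18.2 CPM and was highest in CPC5 at 47.4 CPM (mean 20.7 ± 10.1, SD, 12 cells). CPC5 stood above the next cell, CPC1 with 28.4 CPM, with counting intervals of 41.5 to 53.8 and 23.0 to 34.6 CPM. The other neighbours in the order, 10 of 11 pairs, had overlapping intervals. In RPKM, Notch2 was the highest receptor in 10 of 12 cells and held a median of 64.5% of the summed receptor level.

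Notch1 (chromosome 2, 26457903 to 26516663, minus strand), the receptor that guides arterial fate and vessel sprouting in endothelium, was uneven. It had no counts in CPC4, CPC8 and CPC11, a median of 2.69 CPM and a highest value of 112 CPM in CPC10 (599 counts, exact 95% Poisson interval 104 to 122 CPM). The next cell, CPC7, was at 7.61 CPM (5.43 to 10.4), so CPC10 was 14.8 times as high. Among the remaining cells with counts, neighbours in the order were not apart beyond counting error.

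Notch4 (chromosome 17, 34564268 to 34588503, plus strand), a receptor known chiefly from endothelium, was counted in 10 cells. It was absent from the counts of CPC2 and CPC11, had a median of 4.65 CPM and reached 36.4 CPM in CPC10 (31.5 to 41.9). CPC12 followed at 17.7 CPM (14.5 to 21.6), and these 2 cells had intervals apart from each other and from the 8.11 CPM of CPC1. CPC12 was the only cell with Notch4 as its highest receptor in RPKM, at 49.2% of the summed receptor level.

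Notch3 (chromosome 17, 32120820 to 32166852, minus strand), the receptor of mural cells, was counted in 4 cells. CPC5 had 18.1 CPM (91 counts, 14.6 to 22.2), CPC6 had 3.19 CPM, and CPC3 and CPC9 had at most 4 counts. CPC5 held 78.8% of the CPM of Notch3 summed over cells. Of the 10 mural markers in CPC5, Rgs5, Cspg4, Mcam, Abcc9, Kcnj8, Des and Myh11 were at 0. Kcnj8 had no counts in any cell, and Rgs5, Abcc9, Des and Myh11 had counts in 1 cell each, so their zeros do not set CPC5 apart. Cspg4 had counts in 3 cells and Mcam in 6. Cnn1 was highest in CPC5 at 1.79 CPM, with counts in 2 cells. Acta2 was at 7.16 CPM and Pdgfrb at 20.9 CPM, both under their medians over the cells of 19.2 and 26.1 CPM.

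**Figure D2:**
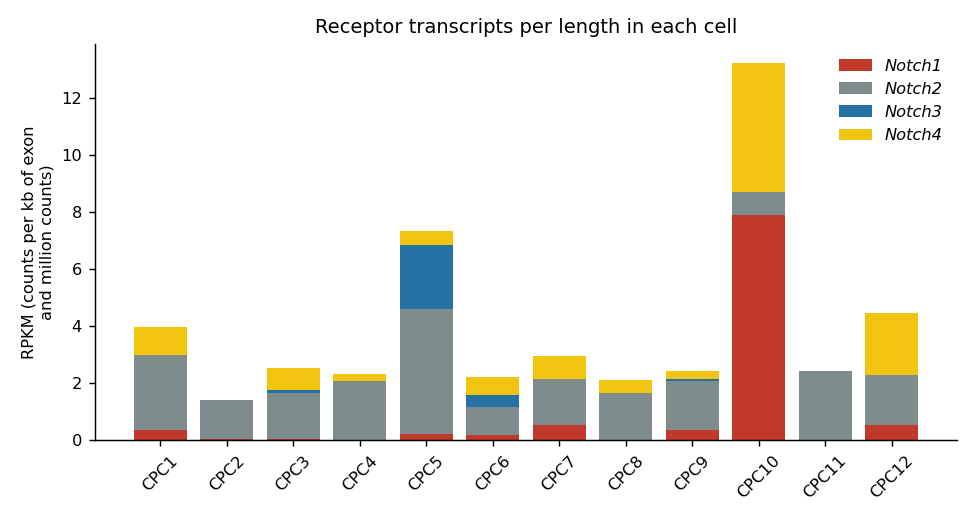
Receptor level per length (RPKM) in each cell, stacked by receptor; each bar is 1 cell. Notch2 makes up most of the bar in most cells, Notch3 is visible in CPC5 and CPC6, and the bar of CPC10 (13.2 RPKM) is 59.7% Notch1 and 34.1% Notch4.

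Jag1 (chromosome 2, 137081456 to 137116644, minus strand), a ligand made by endothelial, mural and stromal cells, was the main ligand in culture. The lowest value was 0.727 CPM in CPC8 (4 counts), the median was 10.9 CPM, and the highest was 140 CPM in CPC10 (743 counts, 130 to 150 CPM). Values fell into a low set (CPC1, CPC2, CPC3 and CPC8, at 0.727 to 1.58 CPM) and a set from 8.5 CPM in CPC6 to 22.4 CPM in CPC7, and CPC10 was at 6.22 times the level of CPC7. No neighbours within either set were apart beyond counting error.

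The other ligands were rare. Dll4 (chromosome 2, 119325784 to 119335962, plus strand), the ligand of endothelial tip and arterial cells, had 59 counts in CPC10, or 11.1 CPM (8.43 to 14.3), and no counts in the other 11 cells. Jag2 (chromosome 12, 112907819 to 112929776, minus strand) had 28 counts in CPC2, or 6.91 CPM, and 3 counts in CPC4. Dll1 (chromosome 17, 15367354 to 15376872, minus strand), a ligand of somite and neural development, was at 0 throughout, a limit that covers counting error only. At 10 CPM or more, 7 cells held a ligand and a receptor and 5 cells a receptor with no ligand, while at 1 count or more all 12 cells held both.

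Hes1 (chromosome 16, 30064384 to 30067796, plus strand), a basic helix-loop-helix repressor that answers to Notch and to other signals, had a median CPM above that of 95.8% of all genes. The lowest value was 85.2 CPM in CPC12 (485 counts), the median was 202 CPM and the highest was 665 CPM in CPC7 (3497 counts, 643 to 687 CPM), giving a mean of 271 ± 183 CPM (SD, 12 cells). CPC11 came second at 520 CPM (501 to 540), and CPC1 and CPC2 followed at 409 and 378 CPM. Of the 11 pairs of neighbours in the order, 4 had overlapping counting intervals. CPC10, with the most receptor and ligand transcripts, had 135 CPM of Hes1, and 3 cells were lower.

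Hey1 (chromosome 3, 8663359 to 8667256, minus strand), a repressor of the same class with a known role in arterial endothelium, was counted in 5 cells. CPC10 was at 10.5 CPM (56 counts, 7.94 to 13.7), CPC5 at 5.77, CPC11 at 3.61, CPC3 at 2.90 and CPC1 at 1.45 CPM. Each of these values overlapped its neighbour within counting error. CPC7, the cell with the most Hes1, had no Hey1 counts.

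How receptor and target transcripts go together over single cells was described by rank correlation, with no p. The labels name no separate culture for a cell, and the cells differ in depth and in the number of genes detected. Spearman's rho between the summed receptor RPKM and the summed target RPKM was -0.04 over 12 cells and 0.08 without CPC10, and Pearson's r of log2(RPKM + 1) was -0.23 and -0.09. The summed target level was in effect that of Hes1 (rho 1 between them). Hey1 was highest in CPC10 and CPC5, the cells with the most receptor RPKM (13.2 and 7.33), and is too low to weigh in the sum. CPC12, next with 4.48 RPKM of receptors, had no Hey1 counts, while CPC11, with 2.41 RPKM, had 3.61 CPM of Hey1. The rho of the sums moved between -0.21 and 0.16 as each cell was left out, lowest without CPC8 and highest without CPC12, so the sign of the relation depended on single cells. Hes1 had rho of 0.13 with Notch2, -0.09 with Notch1, -0.18 with Notch4 and 0.13 with Jag1. Rbpj, the DNA-binding partner of the receptors, was singled out after its values were seen. It ranged from 7.21 CPM in CPC12 to 139 CPM in CPC5, with rho of 0.07 to Hes1. Hes1 had rho of -0.34 with the total count and 0.41 with the number of genes detected.

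**Figure D3:**
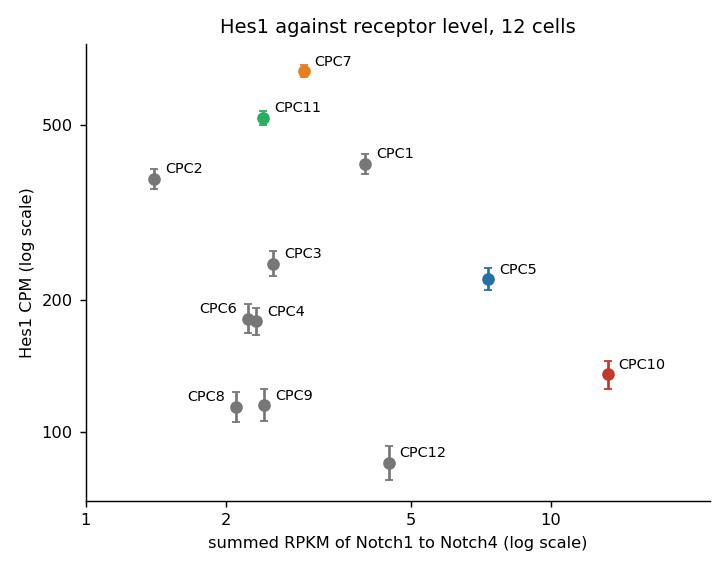
Hes1 level (CPM, log scale, bars are exact 95% Poisson intervals) against the summed receptor level (RPKM, log scale), with 1 point per cell. CPC7 and CPC11 are highest for Hes1 at 2.94 and 2.41 RPKM of receptors, and CPC10, with 13.2 RPKM of receptors, has 135 CPM of Hes1.

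Several members peaked in the same cell. Of the 7 members with a mean of 1 CPM or more, Notch1, Notch4, Jag1 and Hey1 were highest in CPC10, where 12.8% of the 11542 genes at that mean were highest. At least 50% of the CPM summed over cells lay in 1 cell for 3 of the 7, against 6.04% of all genes tested. These were Notch1 (77.8% in CPC10), Jag1 (56.2% in CPC10) and Notch3 (78.8% in CPC5). Notch3 passed the minimum mean only through CPC5, with a mean of 0.443 CPM in the other 11 cells, so its place in this count follows from that cell. When the mean of 1 CPM was asked of the 11 cells other than the highest, a rule added after seeing the data, Notch1 and Jag1 were called of 6 members, and 2.91% of 10942 genes were. Of all genes with a mean of 1 CPM or more over the 12 cells, 2.65% had such a share in CPC10 and 0.338% in CPC5. Notch4 had 39.7% and Hey1 43.4% in CPC10. Dll4, counted in CPC10 only, had a mean under 1 CPM and was not among the 7. Without CPC10 the number was 1 (Notch3), where 4.55% of all genes were called, and without CPC11 it was 5, with Dll4 and Hey1 added, where 6.73% were. Dll4 passed the minimum mean there only through CPC10, so its call follows from the filter. The endothelial markers were high in the same cell, with Pecam1 at 1422 CPM and Cdh5 at 694 CPM in CPC10 and at most 10.3 and 2.37 CPM in any other cell. Without CPC10, the summed endothelial markers had rho of 0.28 with Notch1, 0.47 with Notch4 and -0.15 with Jag1. The 6 arterial markers summed to 247 CPM in CPC10 and to 30.1 to 132 CPM elsewhere. Gja4 at 137 CPM and Bmx at 9.39 CPM were highest in CPC10. Efnb2 was at 100 CPM, which CPC4 (127 CPM) and CPC8 (117 CPM) exceeded. Sema3g was at 0 in CPC10, and Gja5 and Sox17 were at 0 in every cell. The 3 venous markers summed to 210 CPM in CPC10 and to 8.70 to 65.3 CPM elsewhere. Ephb4 was at 175 CPM in CPC10 and at most 38.4 CPM elsewhere, and Aplnr was highest in CPC10 at 5.63 CPM. Nr2f2 was at 29.5 CPM in CPC10 against a median of 24.6. The part of the endothelial, arterial and venous markers in the values of the Notch genes was not tested. Over the other 11 cells, rho was 0.72 between Notch1 and Notch4, 0.22 between Notch1 and Jag1 and -0.17 between Notch4 and Jag1.

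Spread between cells was set against that of other genes at the same mean level. The dispersion residual is the log10 difference between the squared coefficient of variation (SD over mean, in CPM) of a gene and the running median of genes with a like mean, and 9701 genes could be scored, among them 5 members. Notch1 had 1.08, which 1.70% of scored genes exceeded, and Jag1 had 0.96, which 2.78% exceeded. Hes1 followed with 0.52 (9.58% higher) and Notch4 with 0.35 (16.1%). Notch2 had -0.20, with 76.0% of scored genes more variable. The values of Notch1, Jag1 and Notch4 rested on CPC10. Without that cell Jag1 had 0.04, Notch4 had 0.05 and Notch1 could not be scored, since its mean over the other 11 cells was 2.91 CPM, under the minimum of 5 CPM for scoring. The value of Notch2 was -0.63 without CPC5. Hes1 kept values of 0.41 to 0.57 as each cell was left out.

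**Figure D4:**
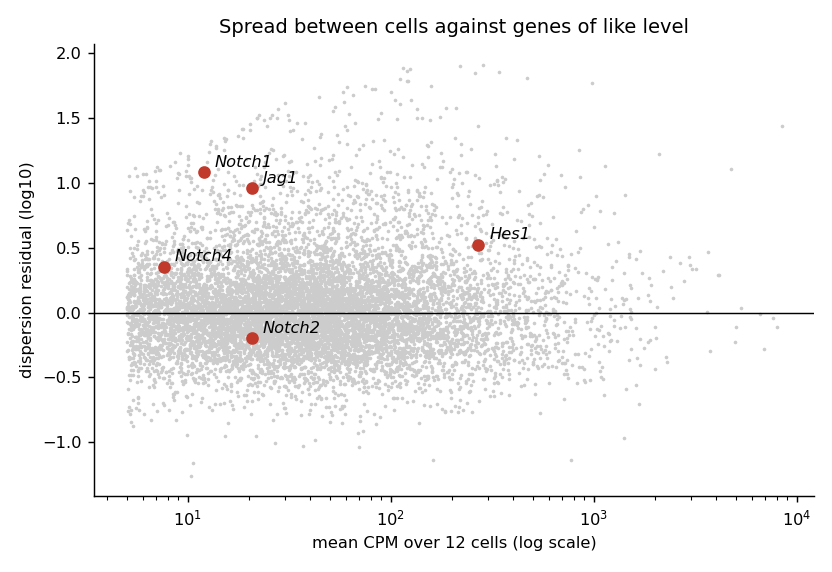
Dispersion residual (log10 scale, 0 is the running median) against mean CPM (log scale) for the 9701 scored genes (grey) and the 5 scored Notch pathway genes (red). Notch1 and Jag1 lie near the upper edge of genes of like level, and Notch2 lies below the line.

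Promoters are shown for Notch1, Notch4 and Jag1, which shared their highest cell, for Dll4, which was counted in that cell only, and for Notch2, which was even over the cells. RefSeq promoters (GRCm38.p6) were found for 8 of the 10 members, and Hes1 and Hey1 were not among them. The 250 bases before each start are printed 5′ to 3′ on the gene's strand. Capitals mark matches to the letters AGGAAG, a form of site bound by ETS factors, and to the letters ACAATG, bound by Sox factors, on either strand. Other forms of such sites were not searched. The Rbpj motif TGGGAA and the TATA box motif TATAAA were searched as well and are not in these windows, and no match overlapped another.
Notch1 promoter (chr2:26503823-26504072, - strand): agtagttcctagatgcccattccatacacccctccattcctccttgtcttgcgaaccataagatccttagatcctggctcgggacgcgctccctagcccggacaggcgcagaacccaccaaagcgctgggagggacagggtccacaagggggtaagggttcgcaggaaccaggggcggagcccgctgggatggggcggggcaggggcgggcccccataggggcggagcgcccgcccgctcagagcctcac
Notch4 promoter (chr17:34564045-34564294, + strand): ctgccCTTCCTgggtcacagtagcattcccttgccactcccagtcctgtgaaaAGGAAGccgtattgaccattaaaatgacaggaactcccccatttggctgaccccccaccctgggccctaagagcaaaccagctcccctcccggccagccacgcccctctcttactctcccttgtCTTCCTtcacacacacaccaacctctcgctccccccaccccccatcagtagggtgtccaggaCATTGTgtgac
Jag1 promoter (chr2:137116521-137116770, - strand): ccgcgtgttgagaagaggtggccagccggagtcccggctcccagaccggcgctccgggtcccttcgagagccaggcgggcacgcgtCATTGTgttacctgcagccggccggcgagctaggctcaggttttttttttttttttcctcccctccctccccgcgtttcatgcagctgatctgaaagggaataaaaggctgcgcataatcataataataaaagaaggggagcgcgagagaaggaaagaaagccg
Dll4 promoter (chr2:119325534-119325783, + strand): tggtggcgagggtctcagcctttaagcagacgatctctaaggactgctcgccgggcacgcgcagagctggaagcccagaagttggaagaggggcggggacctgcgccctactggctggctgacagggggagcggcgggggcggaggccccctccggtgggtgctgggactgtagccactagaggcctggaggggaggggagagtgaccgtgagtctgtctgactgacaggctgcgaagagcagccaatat
Notch2 promoter (chr3:98013288-98013537, + strand): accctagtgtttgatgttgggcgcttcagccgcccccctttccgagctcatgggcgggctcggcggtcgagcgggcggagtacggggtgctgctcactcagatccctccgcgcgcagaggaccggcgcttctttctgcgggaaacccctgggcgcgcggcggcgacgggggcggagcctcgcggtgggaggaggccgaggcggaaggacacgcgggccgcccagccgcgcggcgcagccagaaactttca

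The window of Notch4 held AGGAAG at 3 places and ACAATG at 1 place, and that of Jag1 held ACAATG at 1 place. Of 32851 RefSeq promoter windows of this length, 29.5% held the ETS letters, 10.7% the Sox letters, 21.6% the Rbpj letters and 12.4% the TATA box letters on either strand. Notch1 and Dll4 held none of these 4 strings of letters, as did the evenly expressed Notch2. Of the windows not printed, those of Notch3 and Jag2 held none, and of the 2 windows of Dll1, which had no counts, 1 held the ETS letters at 1 place and the other the Sox letters at 2 places. These matches describe letters in the windows only. For Notch1, Notch2, Notch4 and Jag1 the RefSeq start lies inside the gene model given above, and for Dll4 the starts coincide.

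The rest of the pathway was read from a list of 62 other genes, all of them in the table. Counts were present in all 12 cells for 41 of them and in no cell for 7, and 35 had a median of 10 CPM or more, where the shares of all genes in the table were 35.3%, 33.4% and 36.3%. Genes that cut, sugar and turn over receptors had counts in all cells for 9 of 10, 3 of 5 and 9 of 12 genes, while 1 of 8 further target genes did. Of these targets and repressors, Hes2, Hes5, Hes7, Hey2 and Helt had no counts. Hes6, a relative that opposes Hes1, was at 10.4 to 35.9 CPM with a median of 24.7. Heyl, a target known from mural cells, was at 37.6 CPM in CPC1 (31.4 to 44.7) and 25.5 CPM in CPC10 (21.4 to 30.2), at 8.95 CPM in CPC5 and at most 1.41 CPM elsewhere. Nrarp, a target that feeds back on the receptor complex, had 80 counts in CPC10 (15.0 CPM, 11.9 to 18.7) and none in the other cells.

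In the nuclear complex, 6 of 8 genes had counts in all cells. Snw1 had a median of 59.2 CPM, Crebbp, an acetyltransferase, 52.3 CPM and Kat2b, another acetyltransferase, 19.6 CPM. Among 12 corepressors, 11 had counts in all cells, with Hdac2, a histone deacetylase, at a median of 218 CPM, Ctbp1 at 197 CPM and Hdac1 at 48.4 CPM, the last with little spread (28.9 to 61.9 CPM). Each of these genes had counts in all 12 cells apart from Kat2b, which had none in CPC8.

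Receptor cleavage genes had counts in all 12 cells for 9 of 10 genes. Adam10, the protease of the first activating cut, had a median of 128 CPM and ranged from 55.8 CPM in CPC9 to 273 CPM in CPC10. The gamma-secretase subunits Ncstn and Psenen had medians of 138 and 63.8 CPM, and Ncstn was highest in CPC10 at 329 CPM. Among the genes of receptor glycosylation, Poglut1 had a median of 113 CPM, Pofut1 59.6 CPM and the fringe Rfng 21 CPM, while the fringe Mfng had no counts, as was true of Dtx1, a gene of receptor turnover. Nedd4, a ubiquitin ligase of receptor turnover, had a median of 769 CPM (411 to 1074). Dtx3 and Ccnc had medians of 25.2 and 54.9 CPM.

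Of 4 ubiquitin ligases that act on ligands, 1 had counts in all cells. That gene, Mib1, known to prepare ligands for signalling, had a median of 33.4 CPM and Mib2 10.1 CPM, with Mib2 at 0 in CPC10. Neurl1a had 62.9% of its CPM in CPC8 and Neurl1b 54.6% in CPC5. The ligand relative Dlk2 was counted in all 12 cells at a median of 7.22 CPM (0.719 to 35.0). Of the 53 listed genes with a mean of 1 CPM or more, 4 had at least 50% of their CPM in 1 cell (Heyl, Nrarp, Neurl1a and Neurl1b) and 9 were highest in CPC10, where 6.04% and 12.8% are the shares of all genes. Nrarp and Neurl1a passed the minimum mean only through their highest cell, with means of 0 and 0.857 CPM elsewhere.

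**Figure D5:**
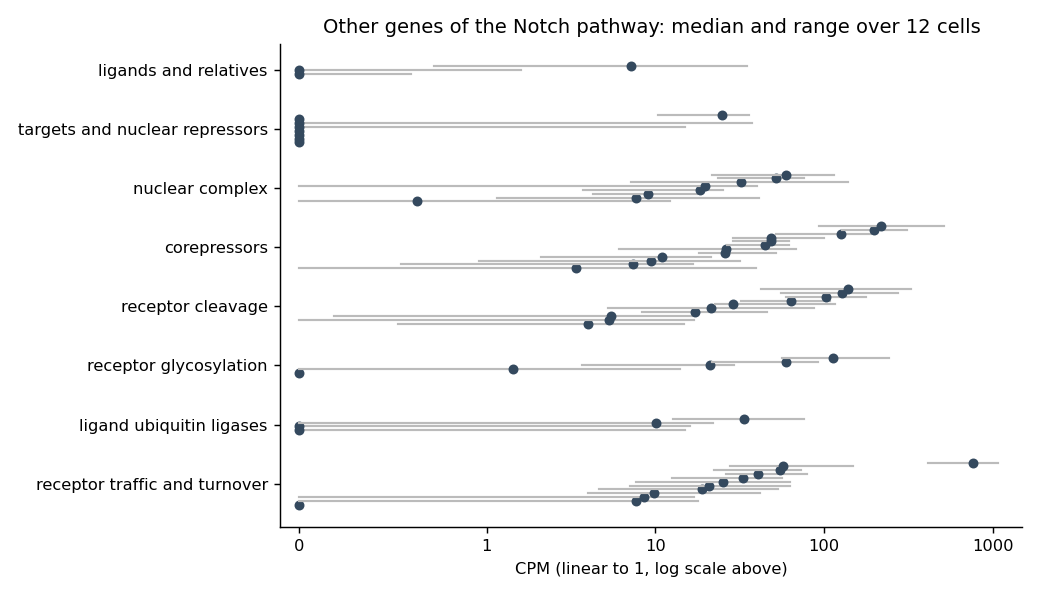
Median (points) and range (grey lines) over 12 cells of 62 other genes of the Notch pathway by role, in CPM (linear up to 1, logarithmic above). Cleavage, glycosylation, corepressor and turnover genes lie mostly between 10 and 1000 CPM at the median, whereas 7 of 8 further targets have a median of 0.

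Genes with the most similar pattern over the 12 cells were taken for each member with a mean of 5 CPM or more and counts in at least 10 cells, out of 8203 genes with a mean of 10 CPM or more. For Hes1 these were Cxx1b (rho 0.90), Id3 (rho 0.87) and Zdhhc24 (rho 0.87). Id3, a helix-loop-helix protein without a DNA-binding region, was highest in CPC11 at 4223 CPM and in CPC7 at 3164 CPM, the same cells that led for Hes1. For Notch2 they were Trmt6 (rho 0.85), Sh3pxd2b (rho 0.84) and Nectin1 (rho 0.83), for Notch4 Ssbp4 (rho 0.91), Zfp334 (rho 0.88) and Pitpnm1 (rho 0.86), and for Jag1 Lima1 (rho 0.89), Map4k5 (rho 0.88) and Mcl1 (rho 0.87). Without CPC10 these values lay between 0.77 and 0.93. They are the top of a search over many genes in 12 cells of 1 cultured group, and they describe these cells only.

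Reads of overlapping genes could not be told apart, because the strand rule of the counting is not given in the sources used here. Exons of Notch1 are overlapped by 0610009E02Rik over 7.5% and by Gm13568 over 2.91% of their length, both on the opposite strand. For Notch3 the overlap was 6.03% with Gm17276, for Dll4 5.56% with Gm14207 and for Dll1 20.5% with A930024N18Rik, all on the opposite strand. For Notch2 it was 5.02% with Gm42820 on the same strand.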

How the data were processed

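RNA of 12 single cultured CPCs, picked by hand, was copied with the Smart-Seq v4 kit and tagged with Nextera XT. Paired reads were mapped by the authors to mm10 (STAR 2.5.2b, default settings), with reads of unique position retained. The authors deposited raw counts for each gene in every cell. The counting program, gene annotation and strand rule are not given in the sources used here.

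From the counts, CPM and RPKM (CPM per kilobase of merged exons, GENCODE vM21, GRCm38, the build of mm10) were computed. Annotation matched 98.3% of symbols. Every cell passed the study's filter of 1000 genes and 10% mitochondrial counts, with at least 10022 genes and at most 2.77%. No doublet caller was run on 12 cells. The members, lists and rules were chosen with earlier results of these data known. Named genes were the 10 members, per role the 3 other pathway genes with the highest median RPKM, any of them with at least 50% of its CPM in 1 cell at a mean of 1 CPM or more, and the 3 genes most like each member. Rbpj and the pathway genes at 0 in every cell are named outside this rule, after their values were seen. Poisson and binomial intervals were exact, at a level of 0.95. Thresholds, gene lengths, scaling (factors of edgeR 4.0.16 and DESeq2 1.42.0), depth and the set of cells were varied. Spread measures were run on simulated counts with planted variation, which checks the calculation only and does not bear on these cells. Software was R 4.3.3 and Python 3.11.15 with scipy 1.17.1, pandas 2.3.3, numpy 2.4.6 and matplotlib 3.10.9.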

Additional observations from a re-analysis of the deposited data

How the results depend on the processing

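The share of member values with a count was 30.0% at 10 CPM or more, which a higher threshold gives by construction. The correlation of receptor and target levels was -0.23 by Pearson's r and, in an alternative chosen after seeing the data, 0.067 without CPC3 and CPC10. For both, the cause was not tested. The number of members with a large part of their CPM in 1 cell was 5, not 3, both with a share of 33.3% as the limit and with no filter on low values, where 15.2% and 21.4% of all genes passed. It was 2 at a mean of 5 CPM or more (2.91% of all genes), 2 without CPC3 and CPC10 (Notch3 and Hey1, 4.53%) and 4 at equal depth. Without CPC3 and CPC10, both called members passed the minimum mean only through CPC5, so their calls follow from the filter. The share of all genes called was not taken at equal depth, so the count of 4 cannot be set against other genes. Median receptor, ligand and target levels under other lengths, scalings and equal depth were 2.52 to 2.74, 1.64 to 1.95 and 90.8 to 139 RPKM. With each cell left out in turn, the correlation ran from -0.21 without CPC8 to 0.16 without CPC12, and was 0.07 without CPC2 and 0.08 without CPC10. The number of members ran from 1 without CPC10 to 5 without CPC11. It was 4 without any single other cell, as the mean of Dll4 then passed 1 CPM. That mean passed through CPC10 alone, so the call of Dll4 follows from the filter. Without CPC5, Hey1 entered while Notch3 dropped out. Hey1 then passed the minimum mean only through CPC10, so its call there follows from the filter too. Of all genes, 4.55 to 7.26% were called with 1 cell left out. The share with a count ran from 54.5 to 57.3%. No paired analysis was possible because the labels give 1 group. Counting error limits the reading of values near 3 counts. Thinning to equal depth left the share with a count at 55.8%.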
